A study of Mus musculus with 27 samples.

Results

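The genes described here are 10 RNA-binding proteins that control alternative splicing in neurons, namely Ptbp1, Ptbp2, Nova1, Nova2, Rbfox1, Rbfox2, Rbfox3, Srrm4, Khdrbs2 and Khdrbs3. They were chosen by gene symbol, and all 10 were found among the 55416 genes of the read count table. Their splice junctions were 80 of the 55669 in the junction table, from 5 each for Khdrbs2 and Khdrbs3 to 20 for Rbfox2, while Nova2 had none. Messenger RNA was sequenced from the whole brain of mouse fetuses of 3 strains at 12, 15 and 17 days (d) of gestation, with the vaginal plug as d1. Every strain had 3 libraries per day, which makes 9 groups and 27 libraries, and every fetus was labelled female. AKR/J and C57BL/6J are inbred. The Cav1-null strain, B6.Cg-Cav1tm1Mls/J, carries a null allele of the caveolin 1 gene on a C57BL/6J background, in the whole animal and not in the brain alone, and the labels name no treatment for any group. The labels do not say which fetuses shared a litter, so p-values measure the spread between these samples only.

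Alternative splicing is read by proteins that bind short RNA motifs next to an exon and raise or lower its use. Ptbp1 binds pyrimidine-rich RNA and keeps many neuronal exons out of messages in progenitors and non-neural cells. It also promotes skipping of an exon in the message of its close relative Ptbp2, which leads that message to decay, so the exchange of Ptbp1 for Ptbp2 is a known step as progenitors become neurons. Nova1 and Nova2 bind YCAY motifs and regulate exons of synaptic proteins. The Rbfox proteins bind TGCATG, and Rbfox3 is the NeuN antigen used to stain mature neurons. Srrm4 promotes the inclusion of microexons, very short exons used in neurons, and the Khdrbs2 and Khdrbs3 proteins, also called SLM1 and SLM2, act on exons of the neurexins.

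Several of the 10 genes carry short alternative exons of their own, and those on which the junction results below turn are shown here with 100 bases of intron on each side, from the GRCm39 mouse genome. The exon is in capitals and the intron in lower case, 5′ to 3′ on the strand of the gene. The lengths of all 5 exons are not multiples of 3, so messages with and without the exon differ in reading frame.
Ptbp2 34-base exon, chr3:119518161-119518394, minus strand: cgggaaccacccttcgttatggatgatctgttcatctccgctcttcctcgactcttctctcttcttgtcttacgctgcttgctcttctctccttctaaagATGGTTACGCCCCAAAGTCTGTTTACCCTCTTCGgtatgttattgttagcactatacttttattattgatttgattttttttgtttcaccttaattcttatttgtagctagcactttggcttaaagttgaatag
Rbfox1 40-base exon, chr16:7181629-7181868, plus strand: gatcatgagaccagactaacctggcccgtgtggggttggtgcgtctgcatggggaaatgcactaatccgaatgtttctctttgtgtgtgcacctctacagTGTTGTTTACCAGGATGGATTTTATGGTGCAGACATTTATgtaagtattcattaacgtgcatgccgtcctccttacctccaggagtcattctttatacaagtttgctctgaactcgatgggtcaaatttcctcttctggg
Rbfox2 40-base exon, chr15:76978551-76978790, minus strand: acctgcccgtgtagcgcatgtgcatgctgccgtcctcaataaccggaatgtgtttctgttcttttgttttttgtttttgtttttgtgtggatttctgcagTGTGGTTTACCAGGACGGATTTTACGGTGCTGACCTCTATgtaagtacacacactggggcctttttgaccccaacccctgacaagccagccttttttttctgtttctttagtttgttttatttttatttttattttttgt
Rbfox2 32-base exon, chr15:76973962-76974193, minus strand: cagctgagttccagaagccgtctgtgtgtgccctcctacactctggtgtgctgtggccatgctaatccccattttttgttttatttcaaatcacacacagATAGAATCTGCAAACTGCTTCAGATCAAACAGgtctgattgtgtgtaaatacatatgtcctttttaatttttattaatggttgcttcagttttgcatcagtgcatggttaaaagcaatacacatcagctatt
Srrm4 16-base exon, chr5:116592632-116592847, minus strand: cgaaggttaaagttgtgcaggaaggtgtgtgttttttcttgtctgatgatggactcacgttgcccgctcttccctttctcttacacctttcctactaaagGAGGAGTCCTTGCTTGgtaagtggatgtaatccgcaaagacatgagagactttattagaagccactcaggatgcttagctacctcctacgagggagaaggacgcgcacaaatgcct
In the GENCODE vM39 annotation, 4 Ptbp2 transcripts skip the 34-base exon at chr3:119518261-119518294, and each of them is typed as a target of nonsense-mediated decay. The 40-base exons of Rbfox1, at chr16:7181729-7181768, and Rbfox2, at chr15:76978651-76978690, are coding and were identical at 34 of their 40 bases. The 32-base exon of Rbfox2, at chr15:76974062-76974093, is coding in all 7 transcripts that hold it and is skipped in 14. The 16-base exon of Srrm4, at chr5:116592732-116592747, belongs to a single annotated transcript, of the nonsense-mediated decay type. The 2 annotated transcripts that skip it are protein coding. TGCATG was found on the transcribed strand in all 3 Rbfox windows, 49 bases upstream and 17 bases downstream of the Rbfox1 exon, 74 bases upstream of the 40-base exon of Rbfox2 and 68 bases downstream of its 32-base exon. Of 192913 internal coding exons of the annotation, 3.27% hold TGCATG within the 100 bases upstream and 4.15% within the 100 bases downstream. CTCTCT, a motif that Ptbp1 binds, lay 38 bases upstream of the Ptbp2 exon, and 10.4% of the coding exons hold it within 100 bases upstream. A match describes the letters and is not a measured binding site.

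Levels are given as CPM, the reads of a gene relative to all gene reads of its library, scaled with TMM factors. Sums over marker genes and the values of Cav1 are CPM without these factors, also where they are correlated with scaled levels below. The factors of AKR/J d12 replicates 1 to 3 were 0.678, 1.04 and 0.675, so scaled sums of replicates 1 and 3 would be higher. The libraries held 26363697 to 39759702 reads on genes (median 29700746), and Cav1 was at 0 to 0.551 CPM in Cav1-null libraries against 6.36 to 43.0 CPM in the others. Sums over marker genes set the AKR/J d12 libraries apart. A list of 13 erythroid genes reached 35650 to 136200 CPM in those 3 libraries and at most 19330 CPM in any other. A list of 12 neuronal genes, none of them among the 10 regulators and all with reads in every library, summed to 1695 to 2484 CPM in AKR/J d12 against 4296 to 6321 CPM in C57BL/6J d12 and 5440 to 6396 CPM in Cav1-null d12. Of 11 trophoblast and yolk sac genes, 9 averaged at least 1 CPM in AKR/J d12 and 1 to 4 in the other groups, 6 of the 9 tested were higher in AKR/J than in C57BL/6J on d12 (median log2 fold change 5.14), and 8 of 9 fell from d12 to d15 in AKR/J (median -6.98). The AKR/J d12 replicates were uneven in this, with sums of 1575, 307.2 and 51.4 CPM over the 11 genes. C57BL/6J d15 replicate 1 reached 5328 CPM over 10 connective tissue and cartilage genes, where the other 2 replicates had 499 and 699.9 CPM. AKR/J d15 replicate 2 had 1689 CPM beside 251.5 and 255.8 CPM, and Cav1-null d12 replicate 3 had 1472 CPM beside 402.1 and 285.5 CPM. The latter library also had 760.1 CPM over 6 choroid plexus genes, beside 249.7 and 190.4 CPM in its group. The mean GC content of the genes, weighted by their reads, was taken without the 13 erythroid genes. It was 48.08% to 49.05% in C57BL/6J apart from 47.33% in d17 replicate 2, against 46.81% to 47.89% in AKR/J and 47.11% to 47.66% in Cav1-null. The strain differences of genes moved with their GC content, with log2 medians of 0.54 among the genes lowest and -0.76 among those highest in GC content (10 groups of equal size) for Cav1-null against C57BL/6J on d15. Values are therefore also given, for calls that were lost or gained and for larger shifts, from a fit in which the trend with GC content and gene length was removed per library, an alternative added after the data had been seen.

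In whole brain the most abundant of the 10 per kilobase of exon was Rbfox2 in 8 of the 9 groups and Ptbp2 in AKR/J d12. Rbfox2 had group means of 24.3 to 103 CPM per kb, and the least abundant were Khdrbs2 (1.19 to 2.32 CPM per kb) and Rbfox3 (1.15 to 7.59 CPM per kb). Ptbp2 lay at 27.1 to 46.1, Nova1 at 15.1 to 26.8, Ptbp1 at 9.30 to 33.7, Srrm4 at 9.53 to 27.8, Rbfox1 at 1.21 to 13.3, Khdrbs3 at 3.09 to 6.91 and Nova2 at 9.08 to 53.4 CPM per kb. The widest range over single libraries belonged to Rbfox1, 18.2-fold between 9.41 and 171 CPM, and the narrowest to Ptbp2, 2.40-fold between 286.7 and 688 CPM. In these bulk samples fewer cells of a type and less RNA per cell cannot be told apart.

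**Figure D1:**
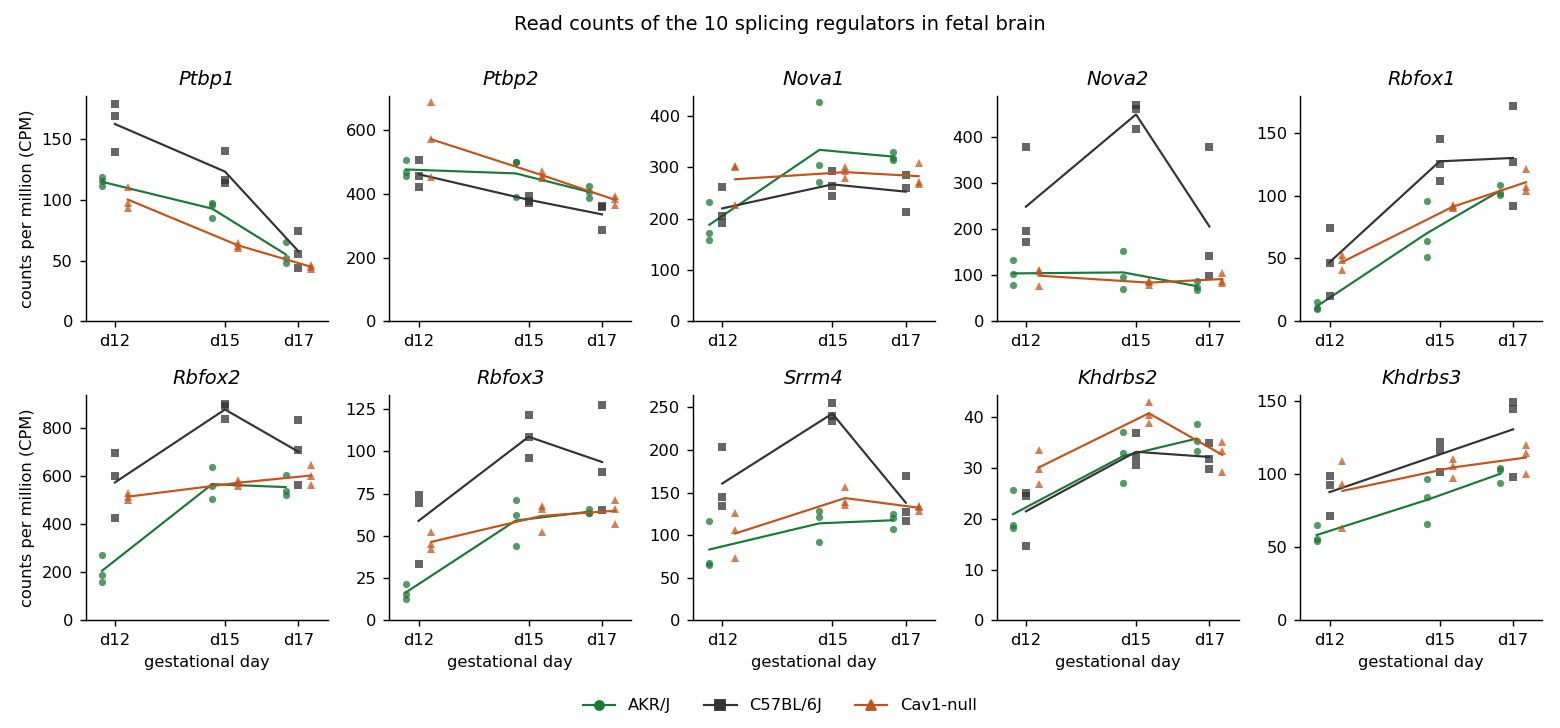
CPM (y axis from 0) of the 10 regulators by gestational day (x axis), with a point for each library, a line through the group means and a colour and symbol for each strain. Ptbp1 was lower on d17 than on d12 in every strain, Rbfox1 was higher, and Nova2 separated the C57BL/6J d15 libraries, at 416 to 469 CPM, from all libraries of the other strains.

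Ptbp1, the progenitor repressor of neuronal exons, fell with gestation in every strain. In C57BL/6J it stood at 139.5, 179 and 169 CPM on d12, 139.9, 116 and 114 CPM on d15 and 73.97, 43.5 and 55.4 CPM on d17. In AKR/J the values were 115, 118 and 111 CPM, then 85.1, 97.1 and 95.9 CPM, then 65.2, 51.9 and 48.3 CPM. In Cav1-null they were 110.5, 97.0 and 93.2 CPM, then 64.8, 62.3 and 60.4 CPM, then 44.9, 43.3 and 46.2 CPM. No d12 library overlapped with a d17 library of its strain, and the d12 mean was 2.08-fold the d17 mean in AKR/J, 2.82-fold in C57BL/6J and 2.24-fold in Cav1-null. From d15 to d17 the log2 fold change was -0.71 ± 0.12 (adjusted p = 0.00458) in AKR/J, -1.06 ± 0.20 (adjusted p = 0.018) in C57BL/6J and -0.45 ± 0.07 (adjusted p = 0.000525) in Cav1-null, where ± is the standard error and p is from the quasi-likelihood test of edgeR with Benjamini-Hochberg adjustment over all genes tested. From d12 to d15 Ptbp1 passed the test in Cav1-null alone, at -0.66 ± 0.08 (adjusted p = 0.00124), against -0.34 ± 0.15 (adjusted p = 0.114) in AKR/J and -0.43 ± 0.13 (adjusted p = 0.0643) in C57BL/6J. With the GC and length trend removed it passed in all 6 steps between days, with log2 fold changes of -0.52 ± 0.14, -0.57 ± 0.12 and -0.62 ± 0.11 from d12 to d15 in AKR/J, C57BL/6J and Cav1-null.

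Ptbp2, its neuronal relative, was already high on d12, and 1 of its 6 steps between days passed the test. In Cav1-null it measured 572, 688 and 453 CPM on d12, 456, 449.7 and 471 CPM on d15 and 364, 384 and 395 CPM on d17, and it fell by 0.24 on the log2 scale from d15 to d17 (SE 0.07, adjusted p = 0.0206). The other 5 steps between days did not pass the test and lay between -0.31 and -0.07. With the GC and length trend removed, Ptbp2 passed in 4 of the 6 steps, all of C57BL/6J and Cav1-null and all downward, between -0.61 and -0.33. The level of Ptbp2 per kb relative to Ptbp1 was 1.62 ± 0.13 (SD, n = 3) on d12, 1.96 ± 0.37 on d15 and 2.89 ± 0.31 on d17 in AKR/J. In C57BL/6J it was 1.12 ± 0.18, 1.21 ± 0.15 and 2.42 ± 0.87, and in Cav1-null 2.22 ± 0.47, 2.86 ± 0.16 and 3.31 ± 0.15. In each strain all d17 libraries lay above all d12 libraries in this ratio. The ratio was taken without removal of the GC trend, and Ptbp2 has 37.3% GC and Ptbp1 55.0%, at percentiles 1.8 and 83.5 of expressed genes. Within C57BL/6J d17 it was 1.51, 3.23 and 2.51 in libraries of 49.05%, 47.33% and 48.21% GC. The part of GC content in the ratio was not tested.

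The Nova genes differed from each other. Nova1 varied little over days in C57BL/6J (192 to 262 CPM on d12, 244 to 292 CPM on d15, 213 to 286 CPM on d17) and in Cav1-null (228 to 302, 279.5 to 301 and 268 to 309 CPM), with groups that overlapped in all 4 steps. In AKR/J it was at 158, 173 and 234 CPM on d12, 306, 271 and 427 CPM on d15 and 315, 319 and 329 CPM on d17, and it rose from d12 to d15 by 0.79 ± 0.23 (adjusted p = 0.0363). The call was lost without AKR/J d12 replicate 1, d15 replicate 1 or d15 replicate 3 and with the GC and length trend removed (0.67 ± 0.24, adjusted p = 0.0745).

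Nova2 was highest in C57BL/6J on d15, above every library of the other strains, as were Srrm4, Rbfox2 and Rbfox3 on that day. In C57BL/6J it measured 195, 377 and 172 CPM on d12, 416, 469 and 460.4 CPM on d15 and 378, 97.4 and 141 CPM on d17. All AKR/J libraries lay between 67.4 and 151.7 CPM and all Cav1-null libraries between 77.4 and 110.6 CPM, with 77.7 to 132, 69.8 to 152 and 67.4 to 87.4 CPM on the 3 days in AKR/J and 77.4 to 111, 78.9 to 87.0 and 82.9 to 105 CPM in Cav1-null. The C57BL/6J replicates of d12 and d17 thus differed among themselves by more than the groups of the other strains did, and no step between days passed the test in any strain. Over the 27 libraries the log2 level of Nova2 followed the read-weighted GC content of the library with r = 0.93, a description over libraries that share strain and day. Nova2 itself has 56.4% GC, at percentile 89.4 of expressed genes.

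Rbfox1 rose the most of the Rbfox genes. In AKR/J it stood at 9.41, 10.7 and 15.4 CPM on d12, 63.5, 51.1 and 95.4 CPM on d15 and 101, 102 and 108 CPM on d17. In C57BL/6J it measured 46.3, 74.1 and 20.4 CPM, then 112, 125 and 145 CPM, then 171, 91.5 and 127 CPM, and in Cav1-null 40.7, 48.4 and 52.3 CPM, then 89.7, 92.3 and 91.0 CPM, then 104, 106 and 122 CPM. The d12 and d17 libraries did not overlap in any strain, and the d17 mean was 8.79-fold the d12 mean in AKR/J, 2.77-fold in C57BL/6J and 2.35-fold in Cav1-null. From d12 to d15 it rose by 2.53 ± 0.28 (adjusted p = 0.00128) in AKR/J and 0.97 ± 0.11 (adjusted p = 0.000905) in Cav1-null. In C57BL/6J the change of 1.41 ± 0.40 (adjusted p = 0.0539) missed the threshold, although the groups did not overlap, and it passed with the GC and length trend removed (1.27 ± 0.36, adjusted p = 0.0418). From d15 to d17 Rbfox1 rose by 0.62 ± 0.18 (adjusted p = 0.0415) in AKR/J and 0.31 ± 0.07 (adjusted p = 0.00712) in Cav1-null, and was 0.07 ± 0.22 (adjusted p = 0.859) in C57BL/6J.

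In the step from d12 to d15 Rbfox2 rose in AKR/J, and Rbfox3 in AKR/J and Cav1-null. Rbfox2 went from 160.1, 273 and 187 CPM on d12 to 561, 505 and 637 CPM on d15 in AKR/J, a log2 fold change of 1.43 ± 0.24 (adjusted p = 0.00502), and stood at 606, 540.2 and 521 CPM on d17. Its Cav1-null libraries lay at 502 to 530.4, 560.4 to 586 and 566 to 646 CPM on the 3 days, and its C57BL/6J libraries at 601, 697 and 426 CPM, then 839, 903 and 894 CPM, then 834, 566 and 708 CPM, with no step that passed the test in either strain. Rbfox3 measured 12.4, 21.5 and 15.6 CPM on d12, 62.3, 43.8 and 71.3 CPM on d15 and 63.5, 63.9 and 65.7 CPM on d17 in AKR/J and rose by 1.81 ± 0.25 (adjusted p = 0.00262) in the first step, or by 1.07 ± 0.20 (adjusted p = 0.0055) with the GC and length trend removed. In Cav1-null it rose from 52.1, 45.4 and 42.0 CPM on d12 to 65.7, 67.7 and 52.2 CPM on d15, by 0.44 ± 0.12 (adjusted p = 0.0271). In C57BL/6J the d12 to d15 difference, from 69.3, 74.2 and 33.2 CPM to 95.8, 109 and 121 CPM, did not pass (0.85 ± 0.28, adjusted p = 0.0755).

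The early rise in AKR/J starts from libraries with a low neuronal marker sum, a high erythroid sum and, unevenly between replicates, reads of trophoblast and yolk sac genes, given above. The part of these in the rise was not tested. Across the 27 libraries the log2 levels of Rbfox1, Rbfox2 and Rbfox3 followed the log2 neuronal marker sum with r of 0.95, 0.94 and 0.92, again a description over libraries that share strain and day. They ran against the erythroid sum with r of -0.74, -0.90 and -0.85. Ptbp1 followed the sum of 12 neural progenitor markers with r = 0.79 and that of the 10 connective tissue and cartilage genes with r = 0.78, and Rbfox1 ran against the progenitor sum with r = -0.83. The per kb level of Rbfox2 relative to Rbfox1 was 20.9 ± 7.80, 9.71 ± 1.87 and 6.15 ± 0.70 on the 3 days in AKR/J, 16.6 ± 6.76, 7.99 ± 0.81 and 6.36 ± 0.76 in C57BL/6J and 12.7 ± 1.75, 7.23 ± 0.14 and 6.29 ± 0.64 in Cav1-null (SD, n = 3). The d12 libraries of each strain all lay above its d17 libraries in this ratio.

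Srrm4, the microexon activator, had its highest levels in C57BL/6J on d15. There it measured 144, 203 and 135 CPM on d12, 239.5, 255 and 233 CPM on d15 and 170, 127 and 117 CPM on d17, and it fell from d15 to d17 by 0.77 on the log2 scale (SE 0.17, adjusted p = 0.0264). In Cav1-null it rose from 127, 106 and 73.8 CPM on d12 to 135, 139.5 and 156 CPM on d15, by 0.53 ± 0.16 (adjusted p = 0.0423), and was 134, 129 and 134 CPM on d17. That call was lost with the GC and length trend removed (0.54 ± 0.19, adjusted p = 0.0658), and the step from d12 to d15 in C57BL/6J passed (0.39 ± 0.11, adjusted p = 0.0468). The Cav1-null d12 value of 73.8 CPM is from replicate 3, which stands apart in the marker sums given above, and their part was not tested. In AKR/J Srrm4 was at 65.5, 116 and 67.6 CPM, then 128, 92.2 and 121 CPM, then 125, 120.3 and 108 CPM, with no step that passed. The annotation places the transcript Srrm4os over this locus, and without stated strand use in the counting its reads cannot be told apart from those of Srrm4. The spans of the other regulators also overlap annotated genes, among them Plppr3 at Ptbp1, and the same limit holds there.

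Khdrbs2 had low levels throughout, with a median of 32.2 CPM over the libraries, where Khdrbs3 had a median of 98.7 CPM. Khdrbs2 in Cav1-null measured 26.9, 33.6 and 29.9 CPM on d12, 38.9, 40.5 and 43.0 CPM on d15 and 29.2, 33.4 and 35.2 CPM on d17, a rise of 0.46 ± 0.11 (adjusted p = 0.0167) followed by a fall (-0.30 ± 0.09, adjusted p = 0.0234). The rise was lost with the GC and length trend removed (0.15 ± 0.11, adjusted p = 0.366) and the fall was kept (-0.40 ± 0.09, adjusted p = 0.00276). In AKR/J and C57BL/6J its group means were 20.9, 32.4 and 35.8 CPM and 21.5, 33.2 and 32.2 CPM on the 3 days, and no step passed the test. Khdrbs3 passed in no step, with group means that went from 58.4 ± 5.94 CPM on d12 to 100.3 ± 5.41 CPM on d17 in AKR/J, from 87.8 ± 14.3 to 131 ± 28.4 CPM in C57BL/6J and from 88.6 ± 23.6 to 111 ± 10.1 CPM in Cav1-null (SD, n = 3).

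**Figure D2:**
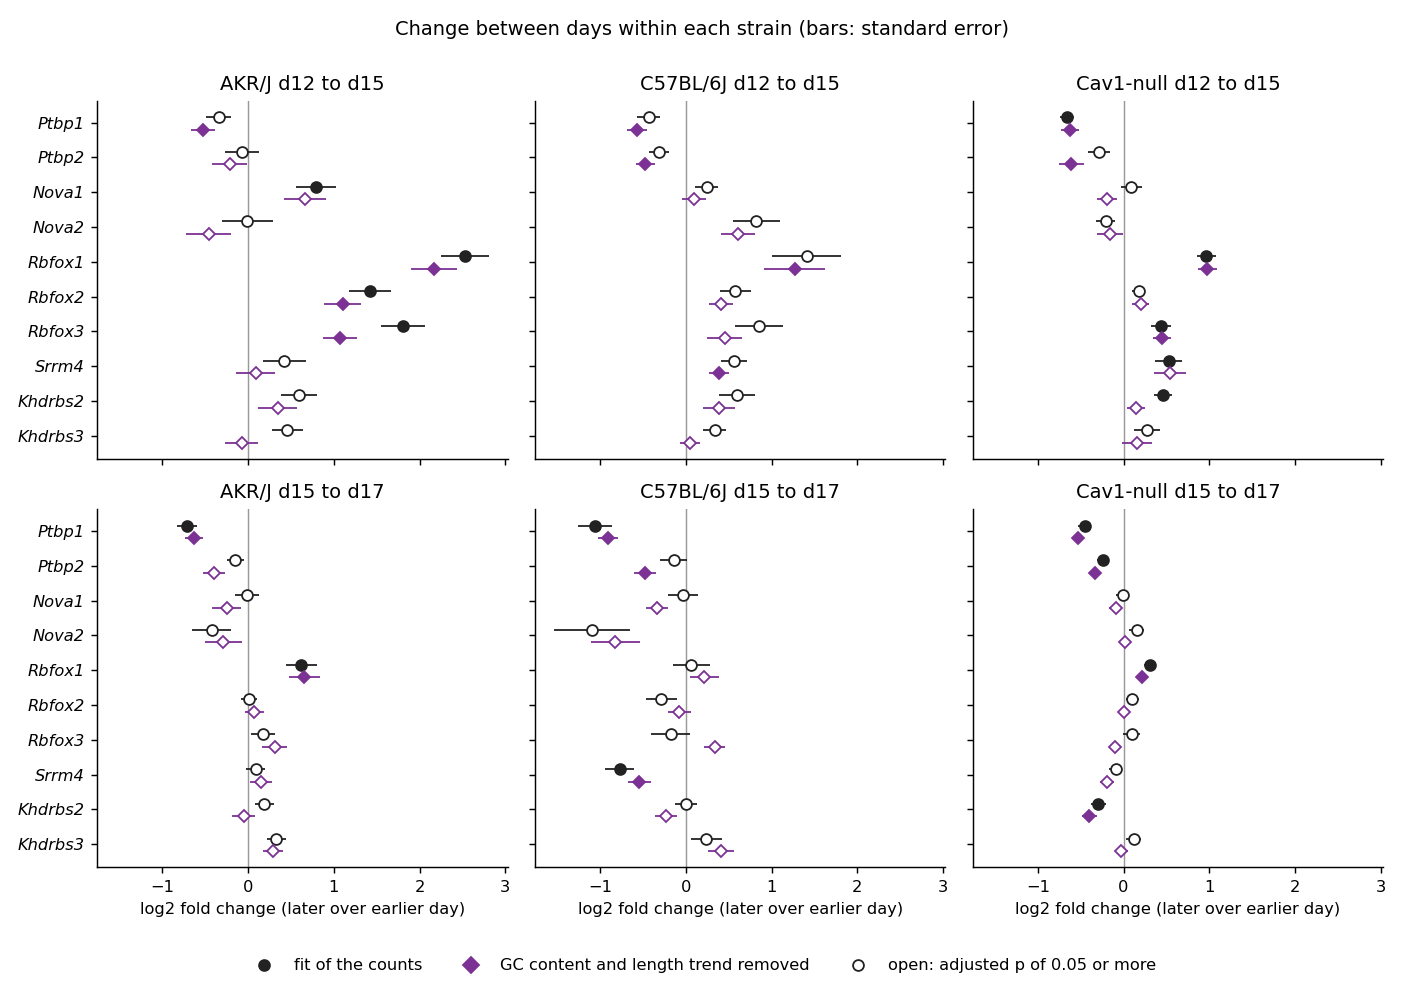
Log2 fold change (x axis, later over earlier day) of each regulator (y axis) in the 6 steps between days, with the standard error as a bar; circles are the fit of the counts, diamonds the fit with the GC and length trend removed, and open symbols have an adjusted p of 0.05 or more. Ptbp1 lies below 0 in all 6 steps in both fits, and Rbfox1 in AKR/J from d12 to d15 has the highest value, 2.53.

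Counted over the 10 genes, all of which passed the filter on low counts in every comparison, 4 rose and none fell from d12 to d15 in AKR/J, where 28.9% of all genes tested were called, 14.8% higher and 14.0% lower. From d15 to d17 in AKR/J, Rbfox1 rose and Ptbp1 fell (22.1% of genes called, 11.6% higher and 10.4% lower). In C57BL/6J none was called from d12 to d15 by edgeR (14.9% of genes called, 7.08% higher and 7.8% lower). There 9 of the 10 had an unadjusted p under 0.05 (35.9% of all genes), 8 had groups that did not overlap (44.3% of all genes), 6 passed with DESeq2 (26.4% of all genes), and 4 passed with the GC and length trend removed (22.5% of all genes). Leaving out C57BL/6J d12 replicate 2 gave 6 calls (29.8% of all genes) and leaving out replicate 3 gave 3 (16.5% of all genes). Ptbp1 and Srrm4 fell from d15 to d17 in C57BL/6J (13.0% of genes called, 7.46% higher and 5.58% lower), and both calls were lost when any 1 of the d15 libraries or d17 replicate 3 was left out. In Cav1-null, Ptbp1 fell and Rbfox1, Rbfox3, Srrm4 and Khdrbs2 rose from d12 to d15 (23.4% of genes called, 11.6% higher and 11.8% lower). From d15 to d17 Ptbp1, Ptbp2 and Khdrbs2 fell and Rbfox1 rose in that strain (27.3% of genes called, 14.5% higher and 12.8% lower). In 1 model of all 27 libraries the calls of Ptbp1 and Rbfox1 in the early step of Cav1-null held (13.1% of all genes called), and those of Rbfox3, Srrm4 and Khdrbs2 and all 4 of its late step did not (3.56% of all genes called). The median log2 fold change of the 10 genes from d12 to d15 was 0.53 (AKR/J), 0.57 (C57BL/6J) and 0.23 (Cav1-null), beside 0.02, -0.04 and -0.01 over all genes, and from d15 to d17 it was 0.05, -0.16 and 0.04, beside -0.01, 0.03 and -0.00. With the GC and length trend removed the medians of the 10 were 0.22, 0.39 and 0.15 in the early steps and 0.01, -0.29 and -0.10 in the late ones. The early and late steps of a strain share its d15 libraries. With any 1 library left out, the calls of Rbfox1, Rbfox2 and Rbfox3 in the early step of AKR/J, of Ptbp1 in its late step and of Ptbp1 and Rbfox1 in both steps of Cav1-null held. The calls of Rbfox3, Srrm4 and Khdrbs2 in the early step and of Ptbp2 and Khdrbs2 in the late step of Cav1-null were lost without d15 replicate 2 and without 2 or 3 further libraries, and that of Rbfox1 in the late step of AKR/J was lost without d15 replicate 1 or any 1 of the d17 libraries.

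A test of whether the change between days differed from that in C57BL/6J called none of the 10 genes in edgeR, from d12 to d15 or from d15 to d17, in AKR/J or Cav1-null. Of all genes 0.0711% and 0.00468% were called for AKR/J and 0.00472% and 0.252% for Cav1-null in the early and late step, and 2 and 1 of the 10 had an unadjusted p under 0.05 for AKR/J (16.3% and 7.57% of all genes), 1 and 3 for Cav1-null (15.0% and 21.9% of all genes). DESeq2 called 1 member each for the late step of AKR/J (0.159% of all genes) and of Cav1-null (6.05%), and leaving out C57BL/6J d17 replicate 1 gave 6 for the late step of Cav1-null (26.1% of all genes). In 1 model of all 27 libraries Rbfox2 was called for the early step, with a change in AKR/J above that in C57BL/6J by 0.85 on the log2 scale (adjusted p = 0.034, 7.12% of all genes called), against 0.79 ± 0.31 (adjusted p = 0.237) in the model of the 12 libraries.

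Against C57BL/6J the AKR/J brain had lower levels of Nova2 and of the Rbfox genes on d12 and d15. On d12 the log2 fold changes were -1.14 ± 0.33 (adjusted p = 0.0351) for Nova2, -1.87 ± 0.43 (adjusted p = 0.0177) for Rbfox1, -1.36 ± 0.29 (adjusted p = 0.0148) for Rbfox2 and -1.72 ± 0.34 (adjusted p = 0.0124) for Rbfox3, the 4 genes called of 10 where 28.6% of all genes were called, 14.5% higher and 14.1% lower. The AKR/J and C57BL/6J libraries of d12 did not overlap for 7 of the 10, these 4 included, nor for 49.2% of all genes. With the GC and length trend removed, Rbfox1 (-1.48 ± 0.40, adjusted p = 0.0365) and Rbfox2 (-0.93 ± 0.23, adjusted p = 0.0295) kept their calls (18.6% of all genes called), while Nova2 became -0.37 ± 0.23 (adjusted p = 0.285) and Rbfox3 -0.58 ± 0.23 (adjusted p = 0.104). None of the 10 was called without AKR/J d12 replicate 1 (6.8% of all genes called) or without C57BL/6J d12 replicate 2 (0.122%), and 1 was called without AKR/J d12 replicate 3 (7.48%) or C57BL/6J d12 replicate 1 (8.0%). The d12 libraries of AKR/J are those with the high erythroid and low neuronal sums and, unevenly between replicates, the trophoblast and yolk sac genes. The part of these in the differences was not tested.

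On d15, 8 of the 10 genes differed between AKR/J and C57BL/6J, 7 lower and 1 higher in AKR/J, where 41.1% of all genes were called, 22.3% lower and 18.8% higher. Nova2 was at 96.3, 69.8 and 152 CPM against 416, 469 and 460.4 CPM (-2.05 ± 0.23, adjusted p = 0.00058), Srrm4 at 128, 92.2 and 121 against 239.5, 255 and 233 CPM (-1.05 ± 0.11, adjusted p = 0.00039) and Rbfox2 at 561, 505 and 637 against 839, 903 and 894 CPM (-0.59 ± 0.09, adjusted p = 0.0017). None of these 3 overlapped between the strains, and 7 of the 10 regulators and 52.7% of all genes did not. Rbfox1 (-0.83 ± 0.19, adjusted p = 0.0122), Rbfox3 (-0.84 ± 0.15, adjusted p = 0.00391), Khdrbs3 (-0.42 ± 0.12, adjusted p = 0.0239) and Ptbp1 (-0.36 ± 0.10, adjusted p = 0.0265) were also lower, and Ptbp2 was higher (0.33 ± 0.09, adjusted p = 0.0234) with groups that overlapped. With the GC and length trend removed only Nova2 (-1.45 ± 0.24, adjusted p = 0.00589) and Srrm4 (-0.69 ± 0.14, adjusted p = 0.0107) kept their calls (25.2% of all genes called), and Rbfox3 turned to 0.03 ± 0.16 (adjusted p = 0.909). Without AKR/J d15 replicate 1 the count of 8 went to 4 (28.2% of all genes called). The calls of Nova2, Srrm4, Rbfox2 and Rbfox3 held with any 1 library left out, while those of Rbfox1, Ptbp1, Khdrbs3 and Ptbp2 were lost without that replicate. Marker sums differed on d15 too, at 118.6 to 151.7 CPM in AKR/J against 209.9 to 300.2 CPM for microglia and vessels. Astrocyte genes summed to 207.3 to 261.1 against 316.7 to 374.6 CPM, and erythroid genes to 2156 to 3322 against 740.4 to 994 CPM. The neuronal and neural progenitor sums overlapped, and the part of these markers was not tested. On d17 none of the 10 was called by edgeR (0.742% of genes called), 2 had an unadjusted p under 0.05 (21.2% of all genes), DESeq2 called 1 (5.82% of all genes), and leaving out C57BL/6J d17 replicate 2, the library with the lowest GC content of its strain, gave 6 (26.4% of all genes).

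The Cav1-null brain, compared with the same C57BL/6J libraries, showed lower Nova2, Ptbp1, Srrm4 and Rbfox levels on d15. Nova2 was at 87.0, 85.3 and 78.9 CPM against 416, 469 and 460.4 CPM, a log2 fold change of -2.38 ± 0.07 (adjusted p = 1.21e-08). Ptbp1 was at 64.8, 62.3 and 60.4 CPM against 139.9, 116 and 114 CPM (-0.94 ± 0.08, adjusted p = 4.44e-06). Rbfox3 (-0.77 ± 0.10, adjusted p = 0.000106), Srrm4 (-0.72 ± 0.07, adjusted p = 8.36e-06), Rbfox2 (-0.58 ± 0.05, adjusted p = 5.86e-06) and Rbfox1 (-0.44 ± 0.08, adjusted p = 0.000976) were lower as well, while Khdrbs2 (0.34 ± 0.08, adjusted p = 0.00595) and Ptbp2 (0.31 ± 0.05, adjusted p = 0.000695) were higher. These 8 did not overlap between the strains, and they stand beside 58.6% of all genes called, 31.8% lower and 26.8% higher, and 65.5% of genes whose groups did not overlap. With any 1 library left out, these 8 calls held. Markers of cell types differed on the same day, with 9 of 12 neural progenitor genes lower in Cav1-null (median log2 fold change -0.74), 7 of 10 connective tissue and cartilage genes lower (-2.18, where C57BL/6J d15 replicate 1 stands apart) and 7 of 9 genes of microglia and vessels lower (-1.41), and their part in these differences was not tested.

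The direction of several of these differences depended on the GC and length trend. With it removed, 50.2% of all genes were called. Nova2 (-1.50 ± 0.08, adjusted p = 1.61e-07) and Ptbp1 (-0.44 ± 0.07, adjusted p = 0.000311) remained lower in Cav1-null on d15, Rbfox3 turned to 0.39 ± 0.09 (adjusted p = 0.00401), Khdrbs3 went from -0.08 to 0.28 ± 0.08 (adjusted p = 0.00979), and Ptbp2 went to -0.05 ± 0.06 (adjusted p = 0.506). Rbfox1, Rbfox2, Srrm4 and Khdrbs2 came to lie between -0.17 and 0.09 and did not pass. On d12 no gene of the 19475 tested was called by edgeR for Cav1-null against C57BL/6J (0.0% of genes), 3 of the 10 regulators had an unadjusted p under 0.05 (22.1% of all genes) and DESeq2 called 2 (12.7% of all genes). Nova2, at 111, 108 and 77.4 CPM against 195, 377 and 172 CPM, had a log2 fold change of -1.31 ± 0.30 (adjusted p = 0.105), and Ptbp1 of -0.68 ± 0.15 (adjusted p = 0.105), both without overlap between the groups. On d17 edgeR called none of the 10 (0.0491% of genes called), and 1 had an unadjusted p under 0.05 (7.55% of all genes). Nova2 was then at -1.10 ± 0.42 (adjusted p = 0.575), with groups that overlapped.

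**Figure D3:**
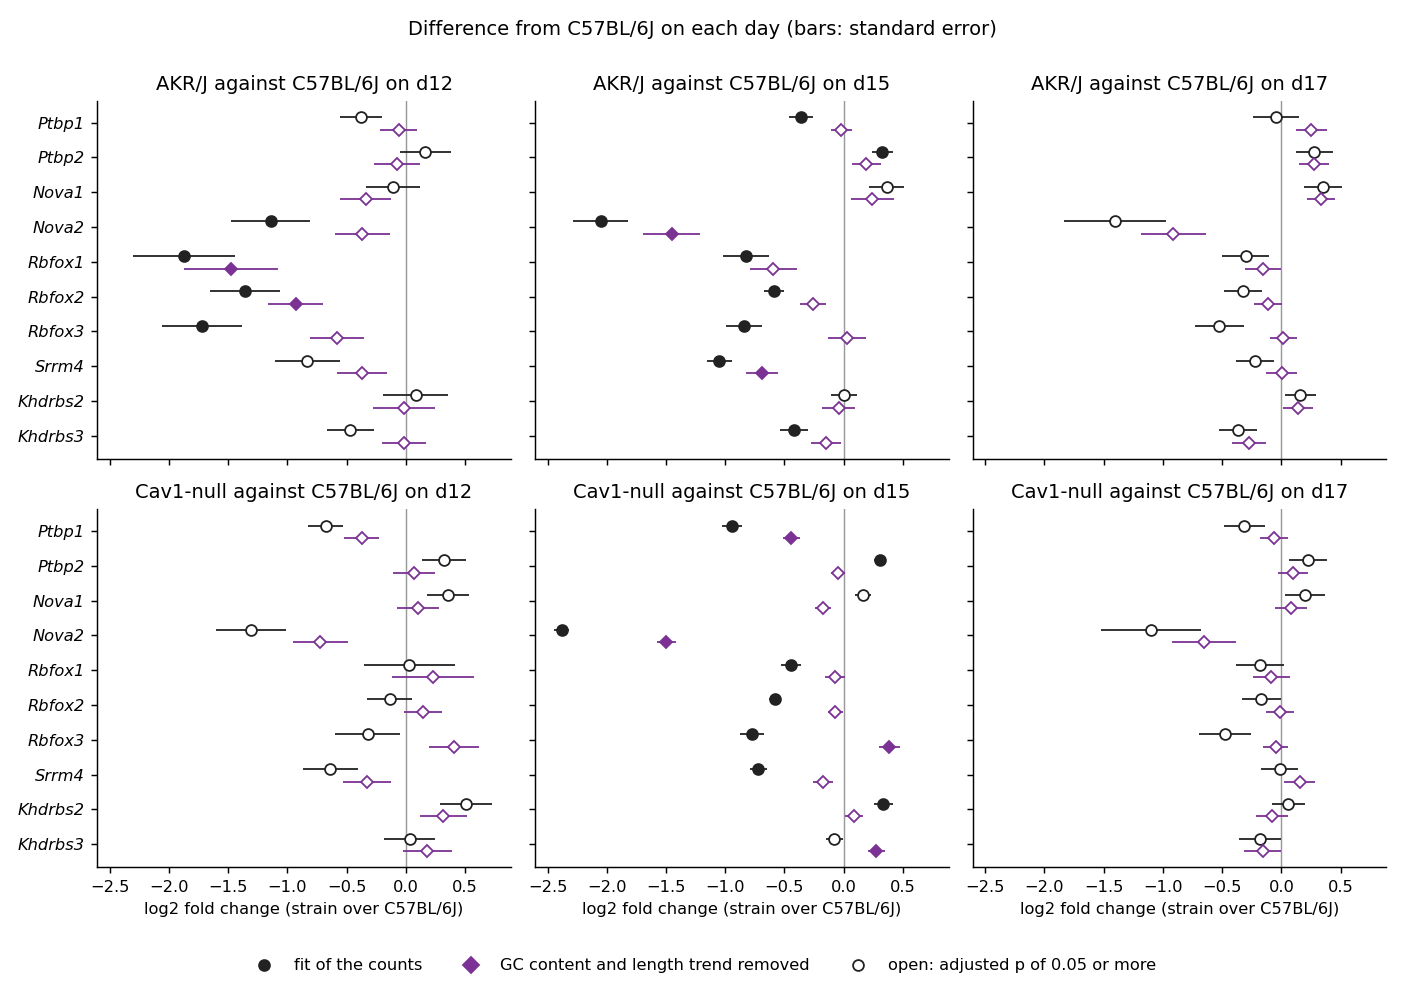
Log2 fold change (x axis, strain over C57BL/6J) of each regulator (y axis) on the 3 days, for AKR/J in the upper and Cav1-null in the lower row, with the standard error as a bar; circles are the fit of the counts, diamonds the fit with the GC and length trend removed, and open symbols have an adjusted p of 0.05 or more. Nova2 lies below 0 in all 6 panels in both fits, while Rbfox3 on d15 moves from -0.84 and -0.77 to 0.03 and 0.39.

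Over the 27 libraries the log2 levels of Srrm4, Rbfox2 and Rbfox3 followed the GC content of the library with r of 0.77, 0.67 and 0.67, below the 0.93 of Nova2. The 3 C57BL/6J libraries of d17 show this within a group, since Nova2 was at 378, 97.4 and 141 CPM where the GC content was 49.05%, 47.33% and 48.21%. In the same libraries the connective tissue and cartilage genes summed to 1199, 138 and 234.6 CPM and the genes of microglia and vessels to 273, 99.2 and 152 CPM, the same order as Nova2, and their part was not tested. Nova2 did not keep the order of GC content within C57BL/6J d15, at 416, 469 and 460.4 CPM for 48.99%, 48.96% and 49.04%. Nor did it within Cav1-null d12, at 110.6, 108.5 and 77.4 CPM for 47.61%, 47.4% and 47.61%, while no other group went against that order. On d12 and d15 GC content and strain cannot be told apart, since all C57BL/6J libraries of a day are higher in GC content than those of AKR/J and Cav1-null.

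**Figure D4:**
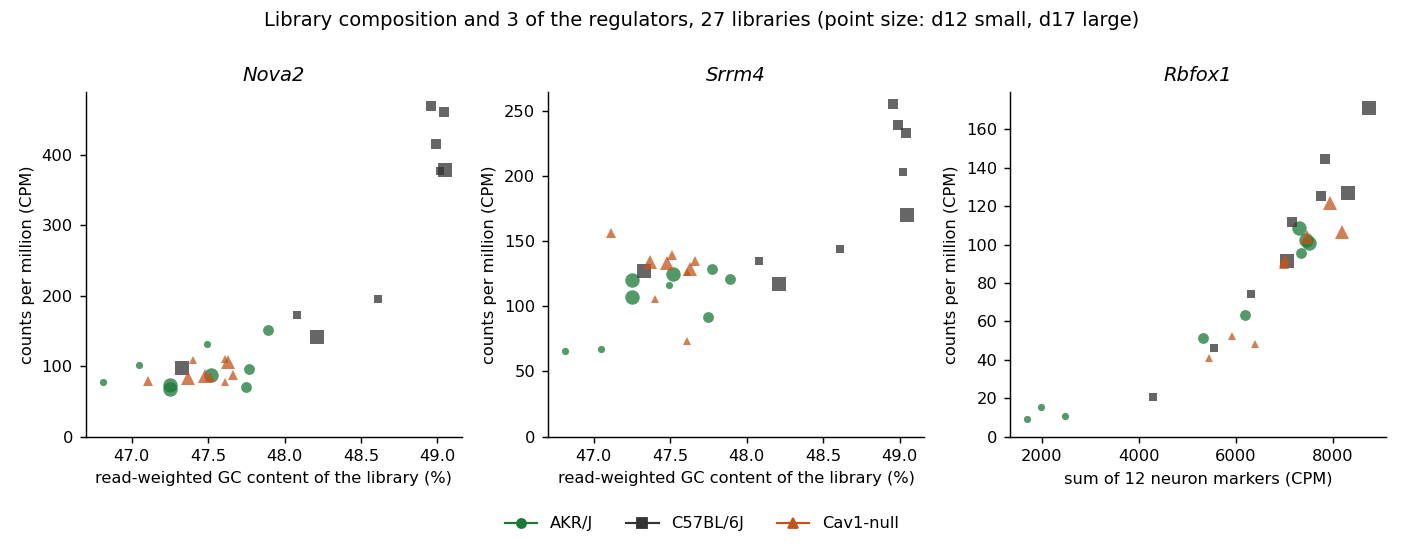
CPM (y axis) of Nova2 and Srrm4 against the read-weighted GC content of the library in percent, and of Rbfox1 against the sum of 12 neuronal markers in CPM (x axes), with a point for each of 27 libraries, colours and symbols for strains and larger points for later days. Nova2 exceeds 300 CPM only in 5 C57BL/6J libraries at 48.96% to 49.05% GC, and Rbfox1 is lowest in the 3 AKR/J d12 libraries, which have the lowest neuronal sums.

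The junctions of the regulators' own messages changed with gestation in Rbfox2, at its 32-base exon and its first exons. Inclusion of the 32-base exon, the mean of the 2 junctions that enter and leave the exon as a share of these and of the junction that joins the 40-base exon past it, was 7.04%, 2.86% and 8.91% on d12, 11.8%, 16.8% and 13.4% on d15 and 15.8%, 21.9% and 18.9% on d17 in AKR/J. In C57BL/6J it was 7.33%, 7.95% and 3.03%, then 14.4%, 12.4% and 11.4%, then 22.7%, 22.2% and 20.7%. In Cav1-null it was 5.18%, 9.03% and 11.03%, then 18.5%, 19.1% and 12.3%, then 22.8%, 28.2% and 23.1%. Every d17 library lay above every d12 library in all 3 strains, and the mean difference of 14.9 percentage points had an exact permutation p of 0.00025 (two-sided, labels of d12 and d17 exchanged within strains, 8000 assignments), the smallest that this test can give. The adjusted p over 81 such tests of 27 junction shares was 0.00289. Without AKR/J, and so without its unusual d12 libraries, the difference was 16.03 points with an exact permutation p of 0.005. The share did not differ between AKR/J and C57BL/6J detectably by the same exact permutation test (-0.51 points, p = 0.669, adjusted p = 0.888), and Cav1-null was 3.04 points above C57BL/6J (p = 0.0268, adjusted p = 0.126).

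The 40-base exon of Rbfox2, whose sequence nearly matches that of Rbfox1, was included in most messages and its inclusion declined. The group means were 98.6% ± 1.53, 93.6% ± 1.02 and 90.6% ± 2.29 on the 3 days in AKR/J (SD, n = 3), 96.1% ± 1.45, 95.0% ± 1.62 and 90.9% ± 3.21 in C57BL/6J and 93.7% ± 5.18, 96.0% ± 1.09 and 90.6% ± 1.75 in Cav1-null. The change from d12 to d17 was -5.46 points (exact permutation p = 0.003, adjusted p = 0.027), and without AKR/J it was -4.18 points with an exact permutation p of 0.06. This measure counts the junction past the 32-base exon and not the junction into it, so the decline and the rise above share reads. At the acceptor of the exon that follows, the share of the junction from the 40-base exon went down by 20.1 points from d12 to d17 and that from the 32-base exon went up by 13.2 points (exact permutation p = 0.00025 and adjusted p = 0.00289 for each). The junction that skips both took 4.59 points more (exact permutation p = 0.0055, adjusted p = 0.0405), or 3.31 points without AKR/J (exact permutation p = 0.085).

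The matching exon of Rbfox1 had higher skipping shares on d17 than on d12 in C57BL/6J and Cav1-null. Its skipping junction took 3.92%, 2.15% and 0% of the reads at its acceptor on d12, 3.87%, 4.67% and 4.09% on d15 and 5.69%, 6.03% and 8.94% on d17 in C57BL/6J. In Cav1-null the shares were 1.79%, 1.70% and 2.27%, then 4.46%, 3.12% and 3.47%, then 7.14%, 7.88% and 3.42%. In AKR/J they were 33.3%, 0% and 0%, then 3.12%, 0% and 0.662%, then 6.50%, 4.46% and 3.87%, and the first of these values rests on 2 skipping and 4 other reads. Over all 3 strains the change from d12 to d17 was 0.98 points (exact permutation p = 0.964, adjusted p = 0.998). Without AKR/J, an alternative added after the data had been seen, it was 4.55 points with an exact permutation p of 0.005, the smallest that its 400 assignments can give. The d12 shares rest on 0 to 2 skipping reads per library and the d17 shares on 5 to 16.

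Rbfox2 messages also shifted between 2 first exons. A coding exon that ends at base 77129690 of chromosome 15 is joined to the exon shared with the upstream first exon, which lies 60874 bases further upstream, and both are annotated as first exons only. The downstream first exon took 0%, 5.13% and 0% of the reads entering the shared exon on d12, 65.5%, 31.8% and 41.9% on d15 and 63.9%, 69.6% and 58.0% on d17 in AKR/J. In C57BL/6J the shares were 20.9%, 33.3% and 16.7%, then 47.1%, 48.4% and 43.8%, then 56.4%, 54.9% and 60.8%, and in Cav1-null 40.5%, 40.7% and 17.3%, then 49.3%, 60.7% and 61.8%, then 59.6%, 60.2% and 53.9%. No d12 library overlapped with a d17 library of its strain. The mean change was 40.3 points (exact permutation p = 0.00025, adjusted p = 0.00289), and 29.4 points without AKR/J (exact permutation p = 0.005). The d12 shares of AKR/J rest on 0, 2 and 0 reads of the downstream and 24, 37 and 34 reads of the upstream first exon.

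**Figure D5:**
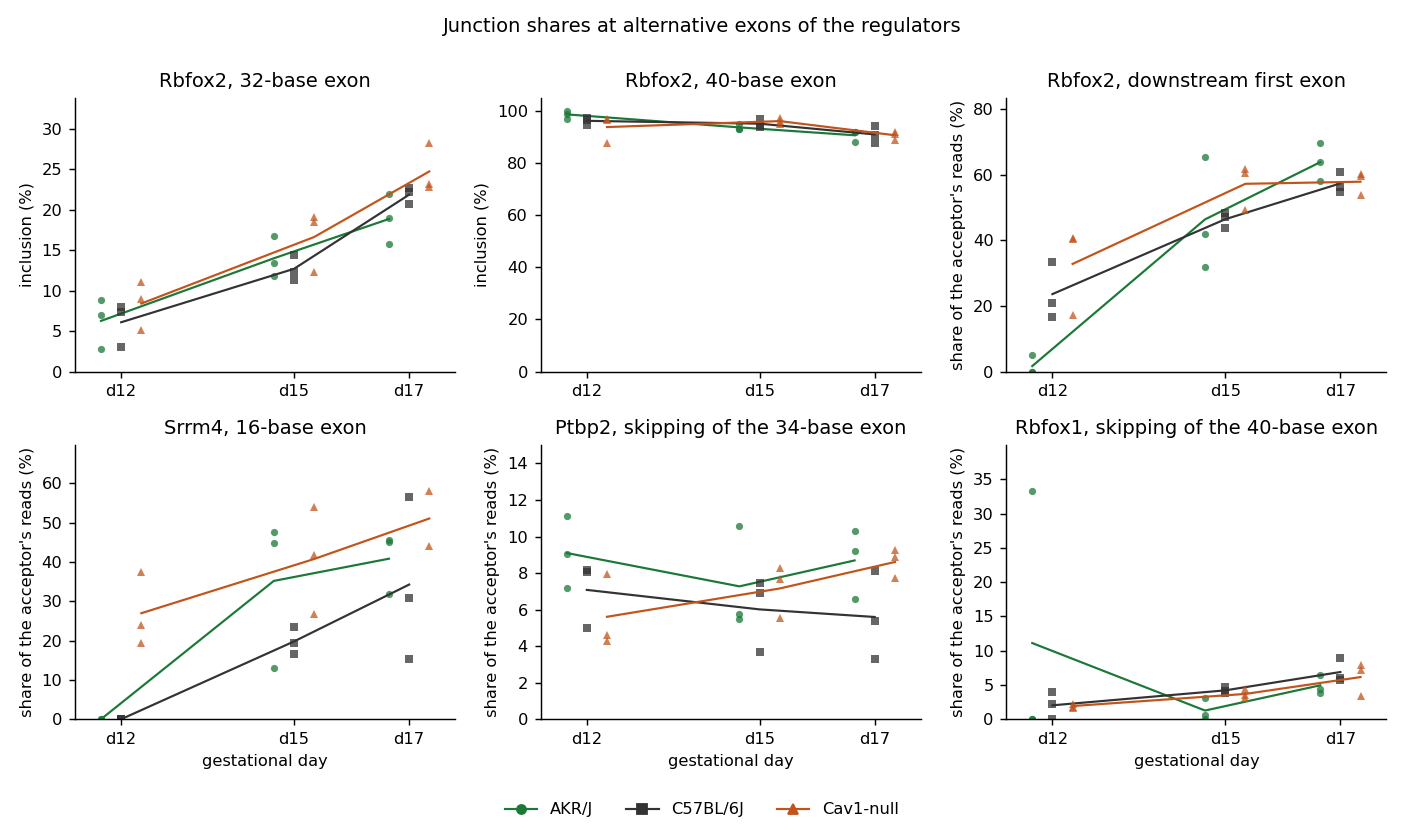
Junction shares in percent (y axes) by gestational day (x axes) at 6 alternative exons or starts of Rbfox2, Srrm4, Ptbp2 and Rbfox1, with a point for each library, a line through the group means and a colour and symbol for each strain. Inclusion of the 32-base exon of Rbfox2 and use of its downstream first exon are higher on d17 than on d12 in every library of all 3 strains, while skipping of the Ptbp2 exon stays between 3.31% and 11.1%.

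Skipping of the Ptbp2 34-base exon, the switch that Ptbp1 is known to act on, did not change detectably between d12 and d17. The skipping junction took 9.10% ± 1.98, 7.27% ± 2.84 and 8.69% ± 1.89 of the reads at its acceptor on the 3 days in AKR/J (SD, n = 3), 7.08% ± 1.79, 6.01% ± 2.04 and 5.59% ± 2.41 in C57BL/6J and 5.61% ± 2.01, 7.16% ± 1.46 and 8.61% ± 0.805 in Cav1-null. The change from d12 to d17 was 0.37 points (exact permutation p = 0.703), over 16 to 58 skipping reads per library, and 0.76 points without AKR/J (exact permutation p = 0.56). AKR/J was 2.13 points above C57BL/6J (exact permutation p = 0.0475, adjusted p = 0.192). A message that decays is counted less than it is made, so the share is that of the RNA present.

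The 16-base exon of Srrm4 could be followed in part only. The junction from this exon to the next took 15.4% to 56.5% of the reads at its acceptor on d15 and d17 in the C57BL/6J libraries, 13.0% to 47.6% in AKR/J and 26.7% to 58.1% in Cav1-null, over 4 to 32 reads. Cav1-null d17 replicate 1, listed at 0 beside 18 and 11 reads in the other replicates, was left out, as was AKR/J d12 replicate 1, with no reads at the acceptor. On d12 it was at 19.4%, 24.0% and 37.5% in Cav1-null and listed at 0 in all AKR/J and C57BL/6J libraries. These zeros cannot be read as absence, because the junction that enters the exon was listed with 13 reads in C57BL/6J d12 replicate 1 and with 5 in AKR/J d12 replicate 2, and it had reads in 9 of the 27 libraries in all. The study's filter on overhangs under 20 bases is longer than this exon, and its part was not tested. The changes of this share from d12 in AKR/J and C57BL/6J, and the strain differences on d12, rest on these zeros and are given without a test. On d15, where every library has reads, it was 16.7% to 23.4% in C57BL/6J and 26.7% to 53.8% in Cav1-null, a difference of 21.0 points. Over d15 and d17 together the difference was 18.9 points (exact permutation p = 0.055), with Cav1-null d17 replicate 1 left out.

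Of all junctions of the regulators, 30 to 41 per comparison had enough reads for a test of each junction against the rest of its gene, and diffSpliceDGE called 1 over all 12 comparisons. The Srrm4 junction that skips the 16-base exon, chr5:116591773-116605490, had 14, 12 and 11 reads in Cav1-null and 105, 109 and 85 reads in C57BL/6J on d15, a log2 difference of -1.47 relative to the gene's other junctions (edgeR diffSpliceDGE, adjusted p = 0.00425), where 0.524% of all junctions tested were called. The call was lost without Cav1-null d15 replicate 3 and with junctions listed at 0 in some libraries kept in the test. In the remaining 11 comparisons diffSpliceDGE called none of the regulators' junctions. The diffSplice test of limma called 2 in AKR/J from d12 to d15, and with junctions listed at 0 in some libraries kept diffSpliceDGE called 1 each in both steps of AKR/J and in the early step of C57BL/6J. The share of all junctions called is not given for these 2 alternatives. With junctions listed at 0 left out, diffSpliceDGE called 0.148%, 0.101%, 0.00717%, 0.0469%, 0.206% and 0.0265% of all junctions in the steps between days. These are the early and late step for AKR/J, then C57BL/6J, then Cav1-null. On the 3 days that share was 0.0552%, 0.218% and 0.0113% for AKR/J and 0.0%, 0.524% and 0.0% for Cav1-null against C57BL/6J. An unadjusted p under 0.05 was found for 6 of 35, 2 of 41, 5 of 30, 5 of 38, 6 of 32 and 4 of 36 junctions of the regulators in the steps between days, beside 3.44%, 3.4%, 2.32%, 2.21%, 3.32% and 2.82% of all junctions. Between strains it was found for 3 of 33, 0 of 36 and 0 of 40 for AKR/J, beside 2.55%, 3.24% and 1.21%, and 0 of 31, 4 of 34 and 0 of 40 for Cav1-null, beside 0.666%, 5.38% and 0.72%. The closest to a call were Nova1 chr12:46747757-46767472 and Rbfox2 chr15:77115638-77190563 from d12 to d15 in AKR/J, with log2 differences of 2.43 (diffSpliceDGE, adjusted p = 0.0603) and -1.42 (adjusted p = 0.0694). That Nova1 junction skips a 72-base exon at chr12:46760281-46760352, and it had 7, 3 and 4 reads in AKR/J d12 and 71, 92 and 118 in AKR/J d15. The 2 junctions that include this exon were listed with 82 and 111 reads in AKR/J d12 replicate 1 and at 0 in the other 26 libraries, so its inclusion could not be measured.

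Beyond the 10 genes, no member of 3 lists of the general splicing machinery rose in any step between days. Of 36 core spliceosome genes, 9 and 18 fell in AKR/J, 16 and 3 in C57BL/6J and 18 and 18 in Cav1-null from d12 to d15 and from d15 to d17. Of 21 hnRNP proteins, abundant RNA-binding proteins that include splicing repressors, none rose, and 0 and 15 fell in AKR/J, 6 and 4 in C57BL/6J and 16 and 17 in Cav1-null, with Hnrnpf at -1.22 in Cav1-null from d12 to d15 and Hnrnpa0 at -1.29 in AKR/J from d15 to d17. Of 10 SR proteins, which mostly promote exon inclusion, none rose, and 3 and 2, 8 and 2, and 3 and 7 fell in the same order. Snrpe, a core protein of the snRNPs, had the largest fall of the spliceosome list in the early step of AKR/J (-3.36) and C57BL/6J (-1.04). These counts stand beside the shares of all genes called given above for each step. None of the 3 lists had a gene that rose with the GC and length trend removed either. The falls were then 10 and 10, 18 and 13, and 12 and 29 for the spliceosome and 4 and 18, 13 and 15, and 19 and 21 for the hnRNP proteins in the same order. For SR proteins they were 4 and 2, 9 and 4, and 1 and 10. Of all genes 26.8% and 18.9%, 22.5% and 18.5%, and 22.3% and 32.9% were called in that fit, in both directions together. Markers of cell types moved in the same steps, with 8 and 11, 7 and 9, and 10 and 10 of 12 neural progenitor genes falling and 8 and 3, 4 and 3, and 4 and 7 of 12 neuronal genes rising, and their part in these falls was not tested.

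Of 36 genes whose messages are reported targets of the regulators, 26 rose and none fell in AKR/J from d12 to d15, 12 rose in C57BL/6J, and 15 rose and 2 fell in Cav1-null. From d15 to d17, 9 rose and 3 fell in AKR/J, 3 rose and 1 fell in C57BL/6J and 22 rose and 2 fell in Cav1-null. Of all genes 14.8% and 11.6% rose in the early and late step of AKR/J, 7.08% and 7.46% in C57BL/6J and 11.6% and 14.5% in Cav1-null. The early rises in AKR/J came with rises of 8 of 12 neuronal genes and falls of 8 of 12 neural progenitor genes and 12 of 13 erythroid genes, and the part of these, and of the neuronal and progenitor genes counted above for the other steps, was not tested. Once the GC and length trend was removed, the early counts were 17 up and 1 down for AKR/J and 12 and 4 for C57BL/6J, the Cav1-null count being 12 and 2, and the late counts were 8 and 3, 7 and 1, and 16 and 5. Of all genes 11.8% rose and 15.0% fell, 7.82% and 14.7%, and 10.1% and 12.2% in the early steps of that fit, and 9.32% and 9.54%, 8.57% and 9.93%, and 13.5% and 19.5% in the late ones. Camk2b, a synaptic kinase, had the largest early rise in AKR/J (3.78) and C57BL/6J (1.88), and Mef2c, a transcription factor of neurons, the largest late rise in all 3 strains (1.80 in AKR/J, 1.16 in C57BL/6J, 0.93 in Cav1-null). The median of the list from d12 to d15 was 1.02 (AKR/J), 0.60 (C57BL/6J) and 0.19 (Cav1-null), and 0.52, 0.44 and 0.18 with the trend removed. On d15, 28 of them were lower and 1 higher in AKR/J than in C57BL/6J, and 30 lower and 2 higher in Cav1-null, beside 22.3% lower and 18.8% higher of all genes for AKR/J and 31.8% and 26.8% for Cav1-null, with Nrxn2, a neurexin, lowest in both (-1.72 and -2.01, or -0.85 and -0.86 with the GC and length trend removed). With the GC and length trend removed the counts were 16 lower and 1 higher for AKR/J and 14 lower and 11 higher for Cav1-null, beside 12.4% lower and 12.7% higher of all genes for AKR/J and 25.1% in each direction for Cav1-null. A gene's level and the splicing of its message are separate quantities, and these are levels.

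Of 31 other splicing regulators, 29 or 30 were tested per comparison. Mbnl3, of the muscleblind family, fell in the early step of all 3 strains (-1.34 in AKR/J, -1.19 in C57BL/6J, -1.37 in Cav1-null) and in the late step of AKR/J (-1.67), and Msi1, a progenitor RNA-binding protein, had the largest late fall in C57BL/6J (-1.38). Celf6, of the CELF family, rose in the early step of AKR/J (1.97) and was lower there than in C57BL/6J on d12 (-1.82). From d12 to d15, 5 rose and 3 fell in AKR/J, 1 rose and 2 fell in C57BL/6J and 4 rose and 9 fell in Cav1-null, and from d15 to d17 it was 1 and 5, 0 and 4, and 4 and 10. Of all genes 14.8% rose and 14.0% fell, 7.08% and 7.8%, and 11.6% and 11.8% in the early steps, and 11.6% and 10.4%, 7.46% and 5.58%, and 14.5% and 12.8% in the late ones. After removal of the GC and length trend the early counts were 4 up and 9 down for AKR/J, 1 and 11 for C57BL/6J and 3 and 11 for Cav1-null, and the late counts were 0 and 8, 0 and 7, and 3 and 11. More genes fell than rose among all genes in that fit too, by the shares just given for the reported targets.

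The genes whose log2 levels were most like those of each regulator over the 27 libraries, of 16433 genes compared, were Mcm3 for Ptbp1 (r = 0.992), a replication helicase subunit, Marchf4 for Rbfox1 (0.990), Abr for Rbfox2 (0.989), Evi5l for Rbfox3 (0.988) and Arid1b for Nova2 (0.983), a chromatin remodelling subunit. Rbm4b was the nearest to Ptbp2 (0.953), Fat3 to Srrm4 (0.948), Nat14 to Khdrbs3 (0.930), D030068K23Rik to Khdrbs2 (0.897) and Zfp941 to Nova1 (0.883). The libraries share strain, day, depth and GC content, so these values describe likeness only.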

How the data were processed

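The study sequenced poly(A) RNA of 27 fetal mouse brains. The authors' processing notes name FastQC, cutadapt, fastp, STAR, edgeR and bedtools with the GRCm39 genome, without versions. The authors deposited raw read counts per gene for 55416 genes and read counts per splice junction, which they filtered against junctions with multi-mapped reads, with overhangs under 20 bases or with fewer than 10 reads in all samples. The tool and strand setting of the gene counts are not given in the sources used here. The 130424 junction entries, listed once per transcript, made 55669 junctions, of which 96.41% match an annotated intron of GENCODE vM39. Of the 80 junctions of the regulators, 69 were listed under them and 11 were assigned by their intron. Where both other replicates of a group had 30 reads or more, 4.32% of the junction values were 0, so a listed 0 may be a removed value.

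Gene counts were tested in R 4.3.3 with the quasi-likelihood test of edgeR 4.0.16, on the 6 libraries of each comparison (12 for differences between changes), with filterByExpr, TMM scaling and Benjamini-Hochberg adjustment over all genes tested, at a threshold of 0.05. Each SE was obtained by dividing the size of the fold change (log2) by the root of its F statistic. Junctions with a read in every library and a mean of at least 10 were tested against their gene with diffSpliceDGE. Junction shares were compared by exact two-sided permutation tests within strains or days (Python 3.11.15, scipy 1.17.1). Junction depth was 2792888 to 4697191 reads per library, and no count carries a molecular identifier. Alternatives were DESeq2 1.42.0, RLE factors, library sizes alone, no filter, 1 model of all 27 libraries, a replicate block, limma 3.58.1 diffSplice and each library left out. Added after the data had been seen were the removal of the trend with GC content and length (splines with 5 degrees of freedom) and shares without AKR/J, without d12 or with every listed 0 kept (a 0 was otherwise left out where another replicate had 10 reads or more). The scripts were tested on simulated data.

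All 10 members are named. From other lists the called genes with the largest rise or fall in a comparison were eligible, for likeness the 2 genes with the highest correlation (the first is printed), and for exons those with the widest range. The members and lists were chosen with earlier results of these data known. Replicate origin by litter is not labelled. No column of the deposited tables went without a sample (0), and the tables hold no comparison of the authors.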

Additional observations from a re-analysis of the deposited data

How the results depend on the processing

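Of 37 calls of a regulator in the comparisons of days and strains, 37 kept direction and threshold with DESeq2, which added 11, and 36 with RLE factors. With the GC content and length trend removed 20 were kept, 14 missed the threshold, 3 turned direction, 7 were added in their direction and 1, Khdrbs3 in Cav1-null on d15, was added with its direction turned. The count of regulators called then went to 4 for C57BL/6J from d12 to d15, to 2 and 2 for AKR/J against C57BL/6J on d12 and d15, and to 4 for Cav1-null on d15, where 22.5%, 18.6%, 25.2% and 50.2% of all genes were called. The values that turned were Khdrbs3 (0.28), Ptbp2 (-0.0496) and Rbfox3 (0.39) in Cav1-null and Rbfox3 (0.0307) in AKR/J, all on d15. In 1 model of all 27 libraries the counts were 1 for AKR/J d15 to d17 (10.2% of all genes called), 5 for C57BL/6J d12 to d15 (16.3%), 2 and 0 for the steps of Cav1-null (13.1% and 3.56%), 7 and 1 for AKR/J against C57BL/6J on d12 and d17 (47.0% and 3.6%), 3 and 5 for Cav1-null on d12 and d15 (7.44% and 35.1%), and 1 for the difference between the early changes of AKR/J and C57BL/6J (7.12%). DESeq2 gave 6 for C57BL/6J d12 to d15, 1 for AKR/J on d17, 2 for Cav1-null on d12 and 1 for each difference between late changes, where 26.4%, 5.82%, 12.7%, 0.159% (AKR/J) and 6.05% (Cav1-null) of all genes were called. Library sizes alone gave 3 for C57BL/6J d12 to d15 (16.1% of all genes called), and no filter 3 (8.71%), with 1 for AKR/J on d17 (2.51%) and 2 for Cav1-null on d12 (2.16%). With junctions at 0 kept, 1 junction was called in AKR/J d12 to d15, AKR/J d15 to d17 and C57BL/6J d12 to d15 and 0 in Cav1-null against C57BL/6J on d15. limma called 2 in AKR/J d12 to d15. The share of all junctions called is not given for these 2 settings. Without AKR/J the change from d12 to d17 was -4.18 points for the 40-base exon of Rbfox2, 3.31 for the junction that skips it and the 32-base exon, and 4.55 for Rbfox1, and without d12 the difference of Cav1-null from C57BL/6J in the Srrm4 share was 18.9 points. Over all 3 days it was 21.6 points, or 15.9 with every listed 0 kept, and both include d12, where the C57BL/6J zeros cannot be read as absence. The cause of these shifts was not tested.

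With 1 library left out, the count of regulators called ranged from 3 to 6 and 1 to 3 for the early and late step of AKR/J, 0 to 6 and 0 to 3 for C57BL/6J and 2 to 7 and 2 to 3 for Cav1-null. On d12, d15 and d17 it ranged from 0 to 5, 4 to 9 and 0 to 6 for AKR/J against C57BL/6J and from 0 to 3, 8 to 9 and 0 to 2 for Cav1-null. For differences between changes it ranged from 0 to 1 and 0 to 2 for AKR/J and 0 to 1 and 0 to 6 for Cav1-null. The late step of AKR/J went to 1 without d15 replicate 1 or any d17 library. The early step of Cav1-null went to 3 without d12 replicate 2, d15 replicate 1 or d15 replicate 3 and to 2 without d15 replicate 2. Its late step went to 2 without d15 replicate 2 or 3. The share of all genes called moved in such fits as well, so the counts do not describe the regulators alone. For AKR/J against C57BL/6J on d12 it was 28.6% with all libraries and 0.122% without C57BL/6J d12 replicate 2. On d17 it was 0.742%, and 26.4% without C57BL/6J d17 replicate 2. In C57BL/6J from d12 to d15 it was 14.9%, and 29.8% without d12 replicate 2. For junctions the count ranged from 0 to 2 in the early step of AKR/J, 0 to 1 in that of C57BL/6J and in Cav1-null on d15, and 0 to 0 elsewhere. Under the replicate block 34 of the 37 calls were kept, 3 missed the threshold and 1 was added. Replicate numbers shared across groups did not pair the libraries, since deviations correlated between -0.50 and 0.43 and in 0 of 12 pairs of groups were all over 0.1. Depth limits the junction shares, several of which rest on under 20 reads.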
